A study of Mus musculus with 12 samples.

Results

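The enzymes described here build long polyunsaturated and very long chain fatty acids. They were the 9 rows of a mouse liver gene count table named Fads1, Fads2, Fads3, Fads6, Elovl1, Elovl2, Elovl3, Elovl5 and Elovl7, out of 43346 rows. The rule that picked them was a list of names, set when earlier results of these data were known. All 9 had enough reads to be tested, although Elovl7 passed the filter on low counts only through the livers on the rich diet.

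Mammals make long polyunsaturated fatty acids from plant-derived precursors in the endoplasmic reticulum by alternating desaturation with elongation. Fads2 encodes the delta-6 desaturase that opens the pathway, Elovl5 then lengthens its products, and Fads1 encodes the delta-5 desaturase that yields arachidonic acid and eicosapentaenoic acid. Elovl2 lengthens these further on the way to docosahexaenoic acid, whereas Elovl1, Elovl3 and Elovl7 act mostly on saturated and monounsaturated chains. In liver, this gene family is known to respond to the transcription factors SREBP-1c, LXR and PPAR-alpha, and polyunsaturated fats in the diet hold it down.

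Whole livers of S1pr1 floxed mice were sequenced in bulk for RNA, with 4 groups of 3 libraries. Every group carried the floxed allele S1pr1loxp/loxp, and knockout (KO) mice also carried Lyz2-Cre/0, which deletes this sphingosine 1-phosphate receptor in cells of the myeloid lineage. Wild-type (WT) mice were their littermates without Cre. From 12 weeks of age, mice received for 24 weeks either standard rodent chow or a Western diet high in cholesterol, fructose and fat (FFC). The sex of the mice, and whether each library came from its own mouse, are not given in the sources used here, so each p-value measures library-to-library spread, which may be technical. Total counts were 18873092 to 25855609 in the 6 chow libraries and 25773607 to 31154930 in the 6 FFC libraries. Genes with at least 1 count numbered 16008 to 19029 in the chow and 20556 to 21308 in the FFC libraries, without overlap. The part of this difference in the diet results was not tested. S1pr1 itself was no lower in KO liver, at 28.2 to 41.5 CPM in KO chow and 35.4 to 38.9 CPM in KO FFC livers against 27.3 to 44.4 and 29.1 to 39.3 CPM in the WT groups. Whole liver contains S1pr1-expressing cells without Lyz2-Cre, so this tests the genotype labels only in part. Alb, the hepatocyte secretory product albumin, was abundant in all 12 libraries at 50567 to 170014 CPM.

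Levels are given as CPM, counts scaled to a common library size by the trimmed mean of M-values, and levels of different genes are compared only as CPM per kilobase of transcript. Changes are fitted log2 values with their standard error (SE) from edgeR's quasi-likelihood test, and a gene was called when its Benjamini-Hochberg adjusted p over all 16283 tested genes was under 0.05.

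Fads3, Fads2 and Fads1 lie side by side on chromosome 19 (mm10) within 155323 bases. Fads3 (ENSMUSG00000024664) spans 10041548 to 10059671 on the forward strand, Fads2 (ENSMUSG00000024665) spans 10064164 to 10101503 on the reverse strand, and Fads1 (ENSMUSG00000010663) spans 10182888 to 10196870 on the forward strand. Elovl5 (ENSMUSG00000032349) spans 77917364 to 77984519 on chromosome 9, and Fads6 (ENSMUSG00000044788) spans 115279622 to 115297663 on chromosome 11. The promoters of Elovl5, Fads3 and Fads2, members whose level differed by diet, and of Fads6, whose level did not pass a test, are shown with the places of one common promoter element. Each sequence is the 250 bases before the RefSeq start on GRCm38.p6, read 5′ to 3′ on the gene's own strand, and capitals mark the CCAAT box, written CCAAT or, on the other strand, ATTGG. The windows are chr9:77917115-77917364 (+) for Elovl5, chr19:10041298-10041547 (+) for Fads3, chr19:10101504-10101753 (−) for Fads2 and chr11:115297563-115297812 (−) for Fads6.
Elovl5: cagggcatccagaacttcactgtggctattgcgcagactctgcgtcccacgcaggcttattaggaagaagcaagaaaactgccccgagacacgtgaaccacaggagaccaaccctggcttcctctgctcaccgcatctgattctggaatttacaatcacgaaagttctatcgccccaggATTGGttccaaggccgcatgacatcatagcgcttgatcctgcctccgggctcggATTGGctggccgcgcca
Fads3: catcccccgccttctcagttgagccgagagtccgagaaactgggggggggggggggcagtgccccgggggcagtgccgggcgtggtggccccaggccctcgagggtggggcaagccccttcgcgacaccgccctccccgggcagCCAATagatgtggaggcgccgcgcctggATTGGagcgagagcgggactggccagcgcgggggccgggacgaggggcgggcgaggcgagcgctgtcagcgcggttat
Fads2: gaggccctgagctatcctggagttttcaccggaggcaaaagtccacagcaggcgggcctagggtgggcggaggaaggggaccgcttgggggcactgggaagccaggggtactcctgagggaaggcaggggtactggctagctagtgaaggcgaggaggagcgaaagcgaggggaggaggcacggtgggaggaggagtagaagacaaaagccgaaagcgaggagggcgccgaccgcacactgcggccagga
Fads6: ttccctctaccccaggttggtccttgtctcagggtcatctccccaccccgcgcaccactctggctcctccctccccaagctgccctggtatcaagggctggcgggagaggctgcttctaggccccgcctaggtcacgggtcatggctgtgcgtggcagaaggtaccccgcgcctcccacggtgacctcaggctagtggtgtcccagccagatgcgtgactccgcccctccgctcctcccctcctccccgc

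Elovl5 and Fads3 each held 2 CCAAT boxes, at 71 and 17 bases before the start in Elovl5 and at 106 and 78 bases in Fads3. Fads2 and Fads6 had none in this window, whereas Elovl1, whose level did not pass the main edgeR test for diet, held 1 at 35 bases before the start. The box was thus in 3 of the 9 promoters available for 7 members, and over 32851 mouse promoters of the same length 33.8% held at least 1, a share like that of the members. The GC box GGGCGG, searched on both strands, was in 7 of the 9 and in 32.7% of all promoters. The E-box CACGTG was in 1 of the 9, Elovl5, at 161 bases before the start, and in 6.02% of all promoters. The sterol regulatory element TCACNCCAC and the direct repeats of AGGTCA bound by LXR and by PPAR-alpha were in none of the 9, and in 1.05%, 0.0152% and 0.0335% of all promoters. None of these motifs overlapped another at a shown CCAAT box. A match of letters is not a shown binding site, and a missing one says nothing of sites elsewhere.

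In WT liver the FFC diet raised both desaturases of the polyunsaturated pathway and its first elongase. Fads2, Elovl5, Fads3, Fads1 and Elovl7 were called higher, 5 of 9 members, and no member was called lower. Over all tested genes 8.76% were called higher, 8.03% lower and 16.8% in either direction. When each library's trends on GC content and transcript length were offset, 25.0% of all called genes were higher on FFC, against 52.2% without them. Without Elovl7 the count was 4 of 8. In the 5 called genes no FFC library overlapped a chow library, as was so for 45.1% of all tested genes. Elovl7 passed the filter on low counts only through FFC livers, so its separation is no support. Without Elovl7 the members without overlap were the 4 called of 8.

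Fads2 stood at 373, 249.5 and 252 CPM in WT chow replicates 2, 3 and 4 and at 822, 877 and 737 CPM in WT FFC replicates 2, 3 and 4. All 3 FFC libraries lay above all 3 chow libraries. Its log2 change was 1.48 (SE 0.20, 95% confidence interval 1.06 to 1.89, edgeR adjusted p = 0.000133), or 2.78-fold. Fads1, the neighbouring delta-5 desaturase, read 449, 302 and 295 CPM on chow and 616, 566 and 503 CPM on FFC. The groups did not overlap, but WT chow replicate 2 lay closer to the FFC group than to the other chow libraries. The log2 change of Fads1 was 0.69 (SE 0.21, edgeR adjusted p = 0.0336). That call was lost when WT chow replicate 3 or 4, or any of the 3 WT FFC libraries, was left out, with log2 changes of 0.58 to 0.76 and adjusted p of 0.0564 to 0.134, and it was also lost with the GC and length offsets (0.28, adjusted p = 0.346).

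Elovl5, the elongase that follows the delta-6 step, showed the largest change among the well-counted members. It was at 183, 155 and 285 CPM on chow and 672, 885 and 827 CPM on FFC. The lowest FFC library lay far above the highest chow library. The log2 change was 1.94 (SE 0.38, interval 1.13 to 2.75, edgeR adjusted p = 0.00367), or 3.83-fold. Fads3, a desaturase reported to act on sphingoid bases in human cells, was scarce, at 8.79, 2.80 and 11.4 CPM on chow and 23.8, 32.2 and 17.1 CPM on FFC. It rose by 1.66 on the log2 scale (SE 0.43, edgeR adjusted p = 0.0171), and the adjusted p was 0.0653 with 1.41 on the log2 scale without WT FFC replicate 3.

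Elovl7, an elongase of saturated chains, was close to silent. It had 0, 0 and 8 reads in the WT chow libraries, or 0, 0 and 0.401 CPM, and 97, 46 and 46 reads on FFC, or 2.73, 1.21 and 1.35 CPM. The log2 change was 3.67 (SE 1.09, edgeR adjusted p = 0.0318), and leaving out WT chow replicate 2 or 3 or any 1 WT FFC library ended the call, with adjusted p of 0.0611 to 0.138. Without WT chow replicate 4, the only chow library with reads, the fitted change was 8.56 on the log2 scale, which is no bound because the remaining chow libraries are at 0.

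The other 4 members did not pass the test in WT liver. Elovl2, which lengthens the longest polyunsaturated chains, was at 408, 392 and 379 CPM on chow and 373, 575 and 424 CPM on FFC, a log2 change of 0.22 (interval -0.23 to 0.67, edgeR adjusted p = 0.535). Elovl1, which supplies very long saturated chains for sphingolipids, had group means of 40.4 ± 6.32 and 41.6 ± 5.42 CPM (SD, n = 3). Fads6, a family member whose substrate is little known, had means of 143 ± 43.6 and 150.2 ± 3.35 CPM. Their intervals were -0.35 to 0.43 and -0.33 to 0.48 on the log2 scale. With the GC and length offsets Fads6 reversed to -0.45 (adjusted p = 0.0461), under a setting that moved the median of all genes by -0.23. Elovl3, an elongase that is higher in male than in female mouse liver, was the most uneven, at 81.3, 33.7 and 155 CPM on chow and 43.5, 65.3 and 51.2 CPM on FFC. The 2 groups overlapped, and the log2 change was -0.75 (SE 0.49, interval -1.83 to 0.32, edgeR adjusted p = 0.334). Without WT chow replicate 3, its lowest chow library, the value was -1.15 with an adjusted p of 0.0495.

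**Figure D1:**
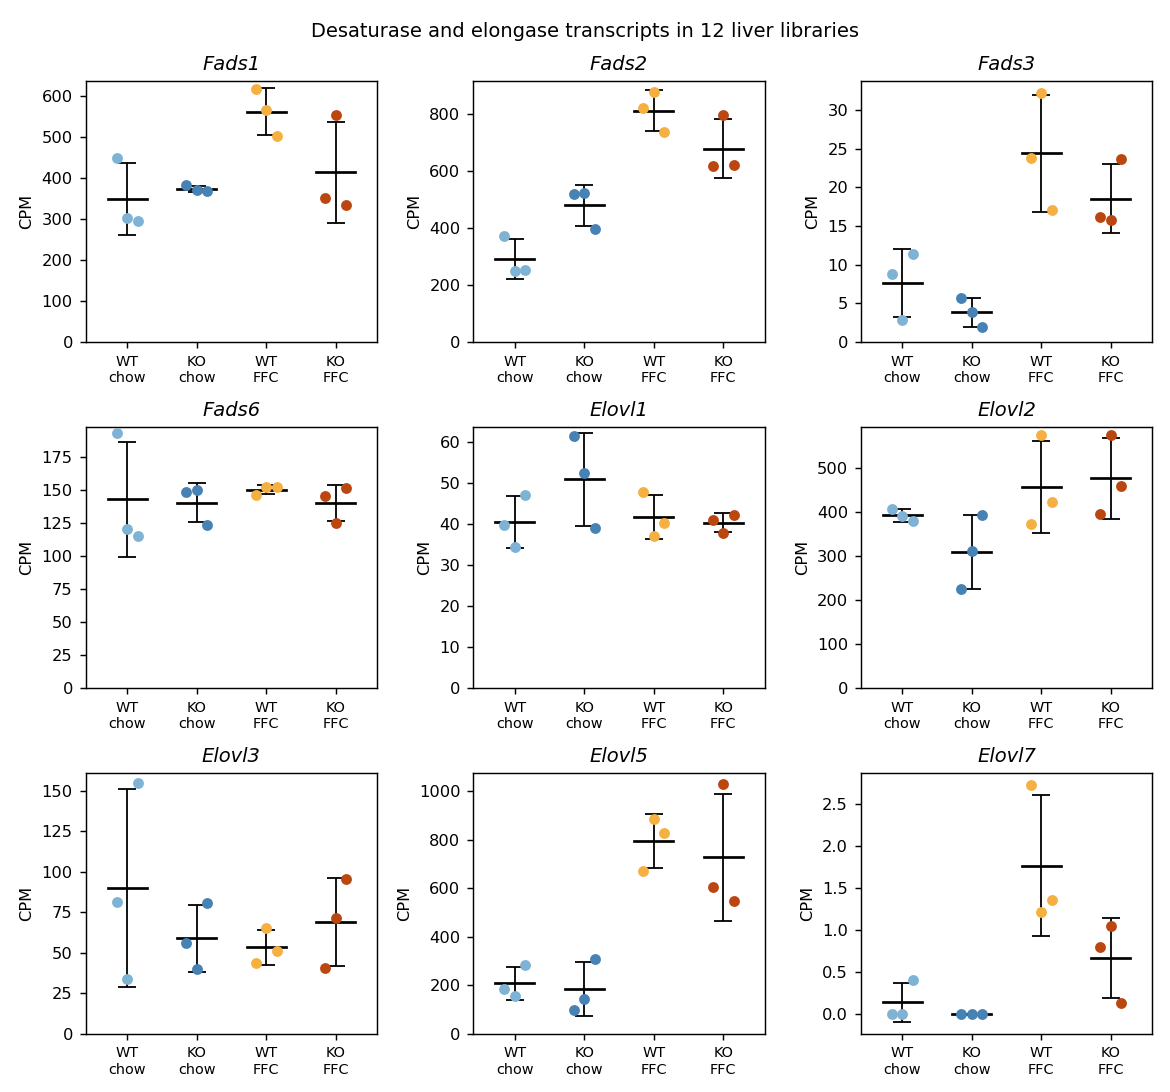
CPM of each of the 9 genes (y axis, linear, each panel with its own scale) in the 4 groups of genotype and diet (x axis). Points are the 12 libraries, horizontal lines are group means and bars are 1 SD over 3 libraries. Elovl5 lies at 97.4 to 309 CPM in the 6 chow livers and at 547 to 1028 CPM in the 6 FFC livers, whereas Fads6 and Elovl1 overlap across all groups.

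In KO liver the diet also raised Elovl5 and Fads3, but the desaturases Fads2 and Fads1 did not pass the test. Elovl5, Fads3, Elovl7 and Elovl2 were called higher, 4 of 9 members or 3 of 8 without Elovl7, and no member was called lower. Over all tested genes 13.7% were called higher, 12.8% lower and 26.5% in either direction, so this comparison called more genes than the one in WT liver. With the GC and length offsets 24.3% of all called genes were higher, against 51.7% without them. In 5 members the FFC and chow libraries did not overlap, against 39.5% of all tested genes. Elovl7 was among them and passed the filter on low counts only through FFC livers, so its separation is no support. The others, out of 8 members, were Fads2, Fads3, Elovl2 and Elovl5.

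Elovl5 was at 97.4, 142 and 309 CPM in KO chow replicates 1, 2 and 3 and at 604, 1028 and 547 CPM in KO FFC replicates 1, 4 and 7. Its log2 change was 1.99 (SE 0.38, interval 1.18 to 2.80, edgeR adjusted p = 0.00205). KO chow replicate 3 was the highest chow library and KO FFC replicate 4 the highest of all 12. Fads3 read 5.64, 3.93 and 1.91 CPM on chow and 16.1, 15.8 and 23.7 CPM on FFC, a log2 change of 2.26 (SE 0.45, edgeR adjusted p = 0.00269). These 2 genes were called in both genotypes.

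Elovl2 was at 226, 311 and 394 CPM on chow and 396, 577 and 459 CPM on FFC. The groups were separated by only the gap between 394 and 396 CPM. The log2 change was 0.62 (SE 0.22, edgeR adjusted p = 0.0412). It was not called with median-ratio size factors (adjusted p = 0.0529), in a fit of the 2 groups alone (0.127), with the GC and length offsets (log2 change 0.08, adjusted p = 0.763), or without KO chow replicate 1 or 2 or KO FFC replicate 4 or 7 (adjusted p 0.0703 to 0.182). Elovl7 had no read in any KO chow library and 24, 31 and 4 reads in the KO FFC libraries, or 0.797, 1.05 and 0.132 CPM. Pooled over the group, its KO FFC level stood 12.1-fold above a chosen floor of 3 counts over the KO chow group. KO FFC replicate 7 alone was at 0.132 CPM against that floor of 0.0543 CPM. The edgeR adjusted p was 0.0129. Elovl7 passed the filter on low counts only through FFC livers, so this p and that in WT liver are no separate support for a rise.

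Fads2 was at 520.0, 523 and 395 CPM in KO chow and at 618, 797 and 622 CPM in KO FFC livers. The groups did not overlap, yet the log2 change of 0.50 (SE 0.19, interval 0.09 to 0.91) had an edgeR adjusted p of 0.0651. Fads1 was at 382, 369.6 and 367 CPM on chow and 352, 554 and 334 CPM on FFC. Here 2 of the 3 FFC libraries lay below all 3 chow libraries, and the log2 change was 0.15 (interval -0.29 to 0.59, edgeR adjusted p = 0.635). KO FFC replicate 4 held the highest KO level of Fads1, Fads2, Elovl2, Elovl5 and Elovl7.

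Of the other members in KO liver, Fads6 had group means of 140.4 ± 15.1 CPM on chow and 140.1 ± 13.7 CPM on FFC. Elovl3 had means of 59.0 ± 20.6 and 69.1 ± 27.4 CPM, a log2 change of 0.23 (edgeR adjusted p = 0.761). Elovl1 had means of 50.8 ± 11.3 CPM on chow and 40.3 ± 2.21 CPM on FFC, and its log2 change of -0.34 did not pass the test (edgeR adjusted p = 0.188). It passed with the GC and length offsets (-0.40, adjusted p = 0.0416) and without KO chow replicate 3 (-0.53, adjusted p = 0.0370).

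Whether the diet effect itself differed between genotypes was tested as the interaction of the 2 factors. None of the 9 members passed in edgeR, where 0.0246% of all tested genes were called higher, 0.0246% lower and 0.0491% in either direction, and 1 member had an unadjusted p under 0.05, against 16.1% of all tested genes. That member was Fads2, whose diet effect was smaller in KO than in WT liver by 0.98 on the log2 scale (log2 difference -0.98, SE 0.28, interval -1.56 to -0.40, unadjusted p = 0.00240, adjusted p = 0.13). It passed with DESeq2 (-1.0, adjusted p = 0.0265), with no filter on low counts (-0.97, adjusted p = 0.0463) and without KO chow replicate 3 (-1.13, adjusted p = 0.0358). For Fads1 the difference was -0.54 (interval -1.16 to 0.09, adjusted p = 0.385) and for Elovl5 it was 0.05 (interval -1.05 to 1.16, adjusted p = 0.973).

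The genotypes were also compared within each diet. On chow, Fads2 was the one called member of 9, against 4.01% of all tested genes called higher, 3.27% lower and 7.28% in either direction, and it was also the one member whose libraries did not overlap, against 20.6% of all genes. All 3 KO chow livers, at 395 to 523 CPM, lay above the WT chow livers at 249.5 to 373 CPM. The log2 difference was 0.72 (SE 0.20, interval 0.31 to 1.13, edgeR adjusted p = 0.0368), or 1.64-fold. The call was lost without any 1 of the 3 WT chow libraries or KO chow replicate 1 or 2 (0.62 to 0.96, adjusted p 0.0600 to 0.109), in a fit of the 2 groups alone (adjusted p = 0.185) and with the GC and length offsets (0.56, adjusted p = 0.103).

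Fads3 differed by -0.99 on chow (SE 0.45, unadjusted p = 0.0442, edgeR adjusted p = 0.176). Fads1 differed by 0.10 (interval -0.35 to 0.54), so the neighbouring desaturase did not share the Fads2 value. The remaining members had adjusted p of 0.19 to 0.954. Within the KO chow group, replicate 3 had the lowest Fads2 and the highest Elovl2 and Elovl5, although the Elovl2 values were about evenly spaced.

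On FFC no member differed by genotype in edgeR, where 0.0123% of all genes were called higher, 0.00614% lower and 0.0184% in either direction. With DESeq2 and limma-voom the count was also 0. The lowest unadjusted p was that of Fads1, the only one under 0.05 (3.63% of all tested genes were), with WT at 503 to 616 CPM, KO at 334 to 554 CPM and a log2 difference of -0.44 (interval -0.88 to 0.00, unadjusted p = 0.0499, adjusted p = 1.00). Elovl5 differed by -0.13 with an interval of -0.91 to 0.65. Only Elovl7 had libraries that did not overlap, with all 3 KO values under all 3 WT values (21.3% of all genes).

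**Figure D2:**
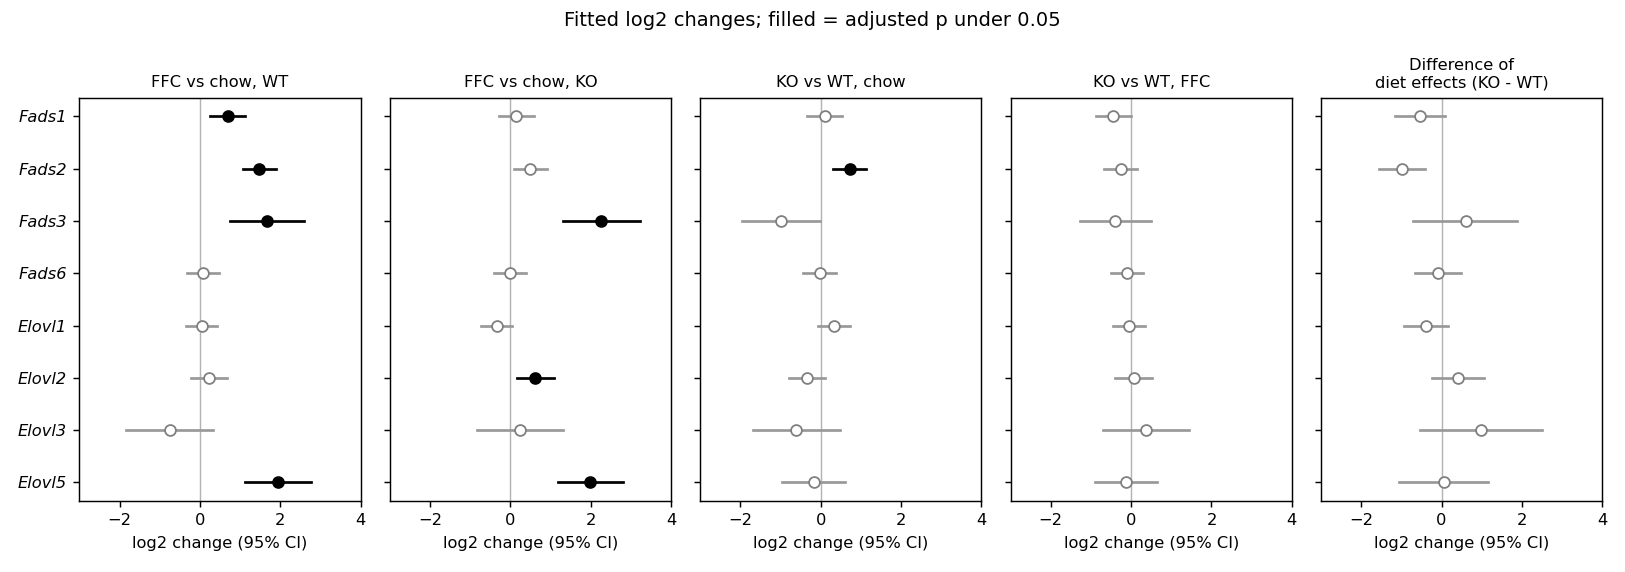
Fitted log2 changes (x axis) with 95% confidence intervals for 8 of the genes (y axis) in 5 comparisons. Filled points have an edgeR adjusted p under 0.05. Elovl7 is left out because its KO chow libraries are all at 0. Elovl5 is at 1.94 and 1.99 in the 2 diet comparisons, while Fads2 is at 1.48 in WT and 0.50 in KO liver.

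The ratio of 2 members within a library does not depend on library scaling, but its size depends on the transcript lengths used, here those of the deposited table. The ratio of Fads2 to Fads1, each per kilobase, was 1.90, 1.89 and 1.96 in the WT chow livers, the tightest of the 4 groups. It was 3.12, 3.24 and 2.47 in KO chow livers, 3.06, 3.55 and 3.36 in WT FFC livers and 4.02, 3.30 and 4.27 in KO FFC livers. Every library of the other groups lay above every WT chow library. Within each genotype the FFC libraries also lay above the chow libraries, in KO liver only by 3.30 against 3.24. KO chow and WT FFC libraries overlapped. How often other gene pairs separate in this way was not counted. With GENCODE M21 exon lengths, a choice added after seeing the data, the ratio was 1.21 to 1.25 in WT chow, 1.57 to 2.07 in KO chow, 1.95 to 2.26 in WT FFC and up to 2.72 in KO FFC livers, so the size was lower and the separation from WT chow held. The ratio of Elovl5 to Elovl2, the elongases of shorter and longer polyunsaturated chains, split by diet across both genotypes. It was 0.431 to 0.822 in WT chow and 0.472 to 0.857 in KO chow livers, with Elovl2 the higher of the 2 in all 6. On FFC it was 1.68 to 2.13 in WT and 1.30 to 1.95 in KO livers, with Elovl5 the higher in all 6.

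**Figure D3:**
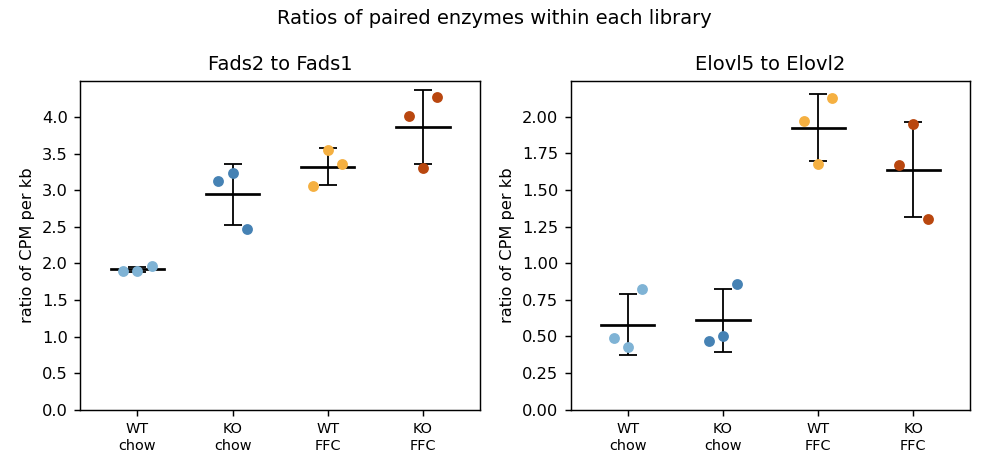
Ratio of CPM per kilobase of table length (y axis, linear from 0) of Fads2 to Fads1 (left) and of Elovl5 to Elovl2 (right) in the 4 groups. Points are libraries, lines are means and bars are 1 SD over 3 libraries. The left ratio is 1.92 ± 0.0343 in WT chow livers and 2.47 or more in every other library, and the right ratio is under 1 in all chow livers.

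By level per kilobase Fads2 led in every group when the transcript length in the deposited table was used, at 193 ± 46.8 CPM per kilobase in WT chow, 318 ± 48.4 in KO chow, 539 ± 46.8 in WT FFC and 450.0 ± 67.7 in KO FFC livers. In WT chow liver Elovl2 and Fads1 followed at 102 ± 3.81 and 101 ± 25.2 CPM per kilobase and could not be separated. Elovl3 at 60.2 ± 40.9 CPM per kilobase overlapped both of them as well as Elovl5 at 58.9 ± 19.4. By mean, Fads6 at 21.5 ± 6.56, Elovl1 at 14.8 ± 2.32, Fads3 at 2.35 ± 1.35 and Elovl7 at 0.0246 ± 0.0426 CPM per kilobase came below them. These 4 did not overlap their neighbours among themselves, though Fads6 and Elovl1 were parted only by 17.3 against 17.2. Elovl3, at 22.5 to 104, overlapped Fads6, at 17.3 to 29.0. On FFC, Elovl5 came next after Fads2, at 226 ± 31.3 CPM per kilobase in WT and 206 ± 74.7 in KO liver. The first place rests on a length of 1508 bases for Fads2. The GENCODE M21 annotation gives 3295 bases of exon, and with that length Fads2 overlapped Elovl2 in WT chow liver and Elovl5 in both FFC groups.

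Summed per kilobase of table length, the 9 genes came to 554 ± 93.2 CPM in WT chow, 639 ± 11.2 in KO chow, 1127 ± 96.3 in WT FFC and 988 ± 198 in KO FFC livers. Fads2 made up 34.9 ± 5.08% of the sum in WT chow and 49.8 ± 8.04% in KO chow livers. On FFC it made up 47.8 ± 2.03% and 45.9 ± 2.25%. These shares rest on the same short Fads2 length. With the M21 lengths the Fads2 share was 22.0 ± 3.82% in WT chow, where Elovl2 had 25.0 ± 4.31%, and 34.7 ± 7.39% in KO chow livers. On FFC it was then 31.8 ± 2.03% and 29.9 ± 1.89%, beside 29.1 ± 2.84% and 29.2 ± 4.35% for Elovl5. With the table lengths the Elovl5 share was 10.7 ± 3.07% in WT chow and 8.09 ± 4.84% in KO chow livers and 20.0 ± 2.34% and 20.5 ± 3.33% on FFC. Elovl2 made up 18.8 ± 3.25% in WT chow liver and 10.5 ± 1.58% in WT FFC liver while its own level did not pass the test.

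**Figure D4:**
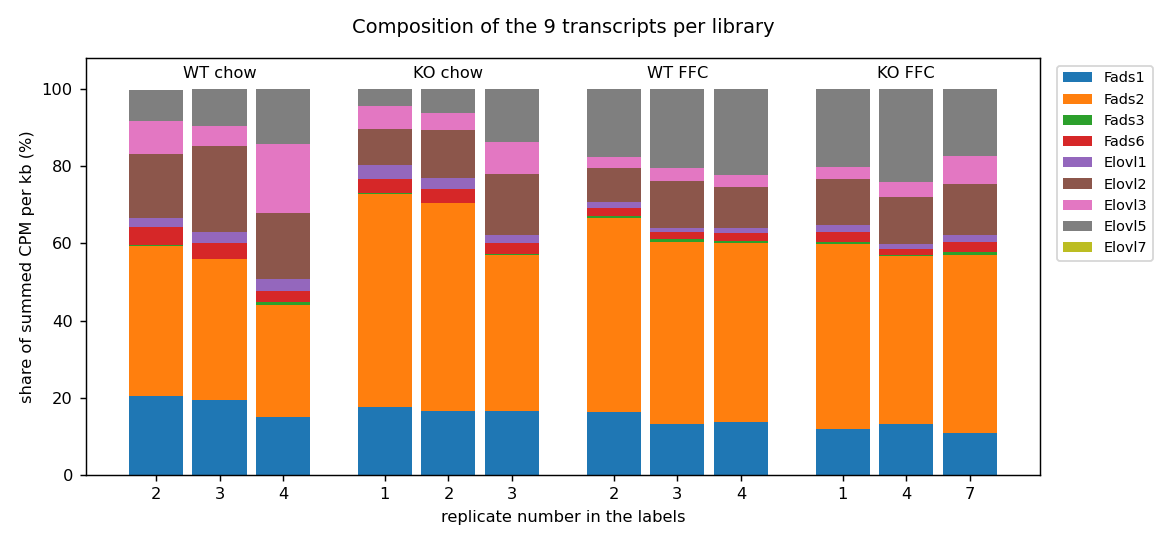
Share of each gene (y axis, percent of the 9 genes' summed CPM per kilobase, table length) in each of the 12 libraries (x axis, replicate number within group). Fads2 takes 29.2% to 55.1% of the sum, and the Elovl5 share is 17.4% or more in all FFC livers and 14.1% or less in all chow livers.

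The spread within groups differed between members. The coefficient of variation was 2.23% to 30.5% for Fads6 and 5.49% to 22.2% for Elovl1, but 20.8% to 67.9% for Elovl3 and 13.9% to 60.9% for Elovl5. Among the 36 pairs of members, Fads6 and Elovl1 had the most similar profile over the 12 libraries, with a root mean square difference of 0.28 in centred log2 CPM. The neighbours Fads1 and Fads2 differed by 0.39, Fads2 and Fads3 by 0.95 and Fads1 and Fads3 by 1.10, although all 3 share 1 locus. Of 8 other tested genes within 100 kb of the Fads cluster, none was called for diet in WT liver in edgeR. In KO liver 1 was called, Tmem258, named for that reason, at -1.02 (edgeR adjusted p = 0.00753). Over all tested genes 16.8% and 26.5% were called in either direction, so counts over 8 genes do not tell the neighbours from other genes.

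Over 9527 protein-coding genes with a mean log2 CPM of at least 2, the closest profiles were found for each member by the same measure. For Fads2 they were Lbh (0.23), Mgll (0.23), which encodes a monoacylglycerol lipase, and Csf1 (0.24), a macrophage growth factor. For Fads1 they were Cnksr3, Gnb1 and Odc1, all at 0.20. For Elovl5 they were Slc17a8 (0.35), Soat1 (0.40), which esterifies cholesterol, and Acot2 (0.41), a mitochondrial acyl-CoA thioesterase. For Elovl3 they were Crot (0.33), 9130409I23Rik (0.35) and the bile salt pump Abcb11 (0.36). For Elovl7 they were 2010003K11Rik (0.80) and the delta-9 desaturases Scd1 (0.88) and Scd3 (0.93), and for Fads3 they were Syk (0.53), Stx2 (0.54) and Plekha1 (0.56). Fads6, Elovl1 and Elovl2 had neighbours at 0.09 to 0.14, among them Ilk for Elovl1 and Ept1 for Elovl2. These are descriptions over 12 libraries that share their diet and genotype structure, and with deviations from group means as the measure only Ilk and Ept1 were found again.

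Fatty acid elongation also needs partner enzymes, and these were counted beside Elovl5. The shares over all tested genes were 8.76% called higher and 8.03% lower in WT liver, and 13.7% and 12.8% in KO liver. Counts in this and the following lists are to be read beside those shares. Of 7 tested partners and other elongases, none was called higher and 1 lower in WT liver, and 1 higher and 1 lower in KO liver, with median log2 changes of -0.02 and 0.41 beside 0.04 and 0.09 over all genes. The lower gene was Tecr, the reductase of the last elongation step. It was at 206, 242 and 259 CPM in WT chow and 147, 144 and 154 CPM in WT FFC livers (log2 change -0.66, SE 0.16, adjusted p = 0.00776). It was at 386, 373 and 335 CPM in KO chow and 152, 156 and 176 CPM in KO FFC livers (-1.18, SE 0.16, adjusted p = 0.000124). On chow Tecr was higher in KO than in WT liver by 0.63 (SE 0.16, adjusted p = 0.0283). Elovl6, which lengthens palmitate to stearate, was called in KO liver at 2.13 (SE 0.36, adjusted p = 0.000994) and was at 0.94 in WT liver (adjusted p = 0.0806).

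Of 11 delta-9 and other desaturases and electron carriers, 5 were higher and 1 lower in WT liver, and 7 higher and 1 lower in KO liver. Scd1, the main hepatic delta-9 desaturase, rose from 3670.1 ± 1725 to 35724 ± 3848 CPM in WT liver (log2 change 3.28, adjusted p = 1.9e-05) and from 2159 ± 824 to 26007 ± 3965 CPM in KO liver (3.59, adjusted p = 1.49e-05). Scd2, Scd3 and Scd4 rose in WT liver by 3.22, 3.29 and 3.13 on the log2 scale. The gene that fell was Cyb5a, a cytochrome b5 that passes electrons to fatty acid desaturases, with log2 changes of -0.94 (adjusted p = 0.00783) and -0.96 (adjusted p = 0.00471). Its level was 1713 to 2640.2 CPM in WT chow and 964 to 1151 CPM in WT FFC livers, without overlap.

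Genes that shorten, activate or oxidise polyunsaturated chains moved in both directions. Several of the counts below lay near the shares of all tested genes called in either direction, 16.8% in WT and 26.5% in KO liver. Of 16 peroxisomal genes, 3 were higher and 1 lower in each genotype. Those higher in KO liver included Hsd17b4, which encodes an enzyme of peroxisomal beta-oxidation, at 0.47 (adjusted p = 0.037). Of 14 genes of activation and phospholipid incorporation, 4 were higher in WT and 2 in KO liver and none lower. Those of KO liver were the acyl-CoA synthetase Acsl1 at 0.80 (adjusted p = 0.00227) and the lysophospholipid acyltransferase Lpcat2 at 1.83 (adjusted p = 0.00363). Of 18 oxygenases, 1 was higher and 6 lower in WT liver, and 1 higher and 4 lower in KO liver. The epoxygenase Cyp2c29 fell by 2.34 on the log2 scale in WT liver, from 3278 ± 1335 to 646 ± 165 CPM (adjusted p = 0.00032), and Cyp2c44 fell by 1.74 (adjusted p = 1.9e-05). Of 9 genes that make ceramides with very long chains, 1 was higher in WT and 3 in KO liver, among them Kdsr, a reductase of sphingoid base synthesis, at 0.72 and 0.66. Counts this small moved with single libraries: without KO FFC replicate 4, 1 of the 16 peroxisomal genes was called in KO liver instead of 4, and without WT FFC replicate 2 or 3, 1 of the 14 activation genes in WT liver instead of 4.

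Known regulators of this family were compared in the same way. Of 20 tested, 3 were higher and 1 lower in WT liver, namely Ppara at 1.14 (adjusted p = 0.00344), Nfya at 1.06 (adjusted p = 0.0263), Mlxipl at 0.74 (adjusted p = 0.0404) and the SREBP-retaining protein Insig1 at -1.66 (adjusted p = 0.0164). Nfya encodes a subunit of the factor that binds CCAAT boxes. Genes of its other subunits did not pass in WT liver, with Nfyb at -0.30 (adjusted p = 0.301) and Nfyc at -0.14 (adjusted p = 0.649). In KO liver Nfya was also called higher, at 1.32 (edgeR adjusted p = 0.00618), whereas Nfyb and Nfyc did not pass, at 0.17 and 0.01. Of the 20 regulators, 3 were higher and 6 lower in KO liver. Among the lower were Scap, the escort protein of SREBPs, at -1.47 (adjusted p = 0.000336) and Srebf2 at -1.33 (adjusted p = 0.000467). Without WT FFC replicate 2, 3 or 4, 1 of the 20 was called in WT liver instead of 4. Srebf1, which encodes SREBP-1c, was at 127, 185 and 125 CPM in WT chow and 333, 362 and 223 CPM in KO chow livers. All KO values lay above all WT values, and the log2 difference was 1.07 (SE 0.24, adjusted p = 0.0229). KO chow replicate 3 was again the lowest of its group. Scap overlaps another annotated gene with a mean count of 388.1 against 1887 for Scap, and Srebf1 overlaps Rai1 with 167.6 against 5694, so reads may be shared.

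Targets of these regulators were counted by branch. Of 20 SREBP2 targets of cholesterol synthesis, 18 were lower in WT and 17 in KO liver, with medians of -1.81 and -1.93. Sqle, the squalene epoxidase, went from 65.8 ± 10.7 to 3.93 ± 1.80 CPM in WT liver (-4.06, adjusted p = 1.9e-05). Of 12 SREBP-1c targets, 6 were higher and 1 lower in WT liver (median 0.71), and 4 higher and 1 lower in KO liver (median 0.22). On chow 3 of them were higher in KO than in WT liver, namely Fasn at 1.20 (adjusted p = 0.024), Acacb at 1.16 (adjusted p = 0.0278) and Slc25a1 at 0.80 (adjusted p = 0.0223), but the median of the 12 was 0.00 and the other 9 did not pass. These chow calls rested on few libraries: without WT chow replicate 2, or in a fit of the chow groups alone, 0 of the 20 regulators and 0 of the 12 SREBP-1c targets were called, and without WT chow replicate 3 or 4, 1 of the 12 targets was. Of 16 PPAR-alpha targets, 7 were higher in WT liver and none lower, and 5 were higher and 1 lower in KO liver. Vnn1, a pantetheinase, was at 1.80 (adjusted p = 1.9e-05) and 1.51 (adjusted p = 9.63e-05).

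Elovl3 has known male-biased and rhythmic expression in mouse liver. Of 15 male-biased genes, 12 were lower in WT liver and 8 in KO liver, with medians of -1.63 and -1.44, whereas Elovl3 itself was at -0.75 and 0.23 and did not pass. Cyp7b1 fell from 354 ± 106 to 45.9 ± 11.5 CPM in WT liver (-2.95, adjusted p = 1.9e-05). Of 10 female-biased genes, 4 were higher and 1 lower in WT liver, and 2 higher and 2 lower in KO liver. Of 16 clock genes, only Per2 was called in WT liver, at 1.02 (adjusted p = 0.00268), and only Per1 in KO liver, at -1.19 (adjusted p = 0.0108).

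**Figure D5:**
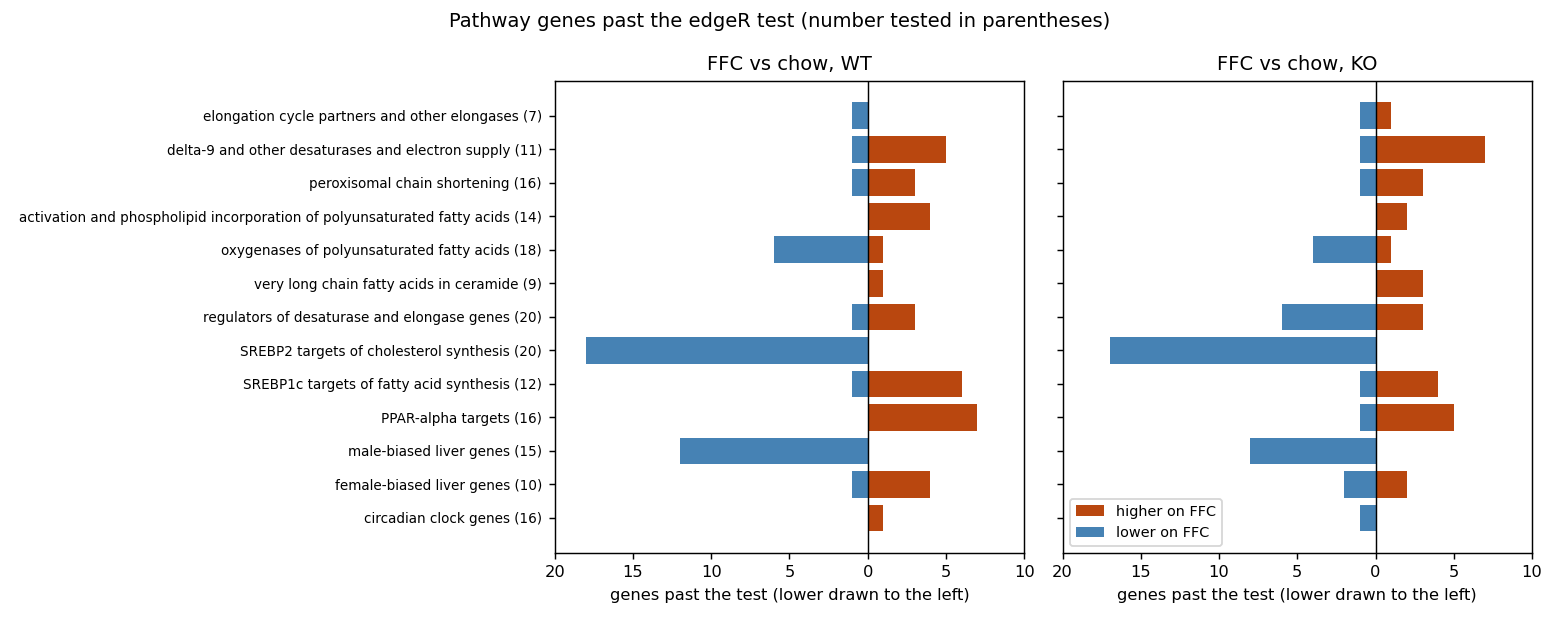
Number of genes past the edgeR test (x axis, higher on FFC to the right, lower to the left) in 13 gene lists (y axis, number tested in parentheses), in WT (left) and KO liver (right). The SREBP2 targets are all to the left, with 18 and 17 of 20 lower, while 7 of 11 delta-9 desaturases and electron carriers in KO liver are to the right.

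Levels of several lists of cell type markers moved with diet, though not of all lists, and the part of tissue makeup in these results was not tested. Summed over 13 hepatocyte markers, the level was 148800.3 to 233529 CPM in chow and 78011 to 119310.0 CPM in FFC livers. Much of that sum was Alb, at 86084 to 170014 CPM in chow and 50567 to 84590.3 CPM in FFC livers. Of the 13 markers, 10 and 11 were lower on FFC in WT and KO liver. Over 18 macrophage markers it was 340.0 to 504 CPM in chow and 883 to 1152 CPM in FFC livers, with 13 higher and 1 lower in WT liver and 15 higher in KO liver. Over 12 stellate cell and fibroblast markers it was 209 to 379 CPM in chow and 365 to 579.8 CPM in FFC livers. In KO liver the diets overlapped, at 342 to 379 CPM on chow and 365 to 573 CPM on FFC. Of the 12, 11 were higher in WT and 5 in KO liver. Of 11 lymphocyte markers, 0 were called in WT and 1 in KO liver, beside 16.8% and 26.5% of all tested genes. Of 7 tested cholangiocyte markers, 0 were called in either genotype. Of 8 adipocyte markers, Lep, Plin1 and Ucp1 were at 0 in all 12 libraries, while the sum was 7.14 to 13.4 CPM in chow and 50.8 to 82.9 CPM in FFC livers. Much of the FFC sum came from 1 marker that is also on the list of PPAR-alpha targets, so the sum need not reflect adipocytes. In bulk tissue a change in the number of cells of a type and a change in RNA per cell cannot be told apart.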

How the data were processed

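Paired-end liver reads were aligned by the authors to mm10 with TopHat 2.1.0 and counted per Ensembl gene with featureCounts 1.4.6, per the series design text. Those raw counts, deposited as 1 table of 43346 genes, are the values used here. The authors used edgeR 3.18.1. The strandedness of counting and the Ensembl release are not given in the sources used here. Fads1 holds the microRNA gene Mir6993 and Elovl1 overlaps Cdc20 by 53 bases, both with few reads. No replicates were pooled, no 2 libraries were identical and all 12 columns were used.

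Low genes were removed by filterByExpr with the group as its argument, leaving 16283, of which 13543 are protein-coding. Libraries, of 18873092 to 31154930 counts, were normalized by TMM, the trimmed mean of M-values. A robust quasi-likelihood fit (edgeR 4.0.16, limma 3.58.1, R 4.3.3) took all 12 libraries in 4 groups, and two-sided p-values were Benjamini-Hochberg adjusted over all tested genes. The code was tested on simulated data. The members and lists were chosen with earlier results of these data known, so list counts are descriptions. Named were all 9 members, of each list up to 4 called genes with the lowest p per comparison (some with their values in other comparisons), the 3 closest profiles of each member, and S1pr1, Lyz2 and Alb. Nfyb and Nfyc were named beside Nfya. Lyz2, whose locus drives the Cre, was at 163 to 186 CPM in WT and 92.2 to 160.0 CPM in KO livers on FFC. Genotypes did not overlap there, as was so for 21.3% of all tested genes. On chow they overlapped, at 47.0 to 58.2 CPM in WT and 40.8 to 54.8 CPM in KO livers.

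Alternatives, changed singly, were DESeq2 1.42.0, limma-voom, median-ratio size factors, the genes with at least 1 count, the filter the authors state (protein-coding, RPKM 1 or more in any library), a replicate block, a fit to the 2 compared groups, offsets from splines with 4 degrees of freedom on GC content and transcript length (both known for 99.06% of genes), and leaving out each library. For profiles, CPM were put on a log2 scale with a prior count of 2. RefSeq promoters were found for 7 of 9 members, not for Fads1 and Elovl3. One gene of the lists is not reported by name here.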

Additional observations from a re-analysis of the deposited data

How the results depend on the processing

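Fads2 and Elovl5 kept their calls for diet in WT liver, and Elovl5 in KO liver, under all 14 alternatives tried. The number of members called for diet in WT liver was 5, and 2 to 4 with 1 library left out. In KO liver it was 4, and 2 with a replicate block, which ended the calls of Fads3 (1.87, adjusted p = 0.0655) and Elovl7 (adjusted p = 0.0506), and 2 in a fit of the 2 groups alone, where Elovl2 did not pass and Elovl7 was not tested. Between genotypes on chow it was 1, and 3 with no filter on low counts, 0 with the block, 0 in the 2 groups alone, 0 with the GC and length offsets and 0 to 1 with 1 library left out. For the interaction it was 0, and 2 with no filter (Fads2 and Elovl3), 1 with DESeq2 and 0 to 1 with 1 library left out (1 without KO chow replicate 3). On FFC between genotypes it was 0 throughout. The replicate numbers gave no sign of pairing: same-numbered libraries had correlations of -0.249 to 0.177, and 1 of 3 WT chow libraries correlated best with its own number. With 3 libraries a group this cannot exclude a pairing. The block changed the sign of values that had not passed, namely Fads6 (0.018) and Elovl3 (-0.45) for diet in KO liver, Elovl5 between genotypes on chow (0.062), and Elovl3 (-0.094) and Elovl5 (0.39) between genotypes on FFC. The GC and length offsets moved the median of all genes by -0.23 in WT and -0.29 in KO liver for diet, and changed the sign of Fads6 (-0.45) and Elovl1 (-0.089) in WT liver, Fads1 (-0.22) and Elovl3 (-0.05) in KO liver, Elovl5 on chow (0.09), Fads6 on FFC (0.046), and Fads6 (0.053) and Elovl5 (-0.29) for the interaction. Fads6 also changed sign for diet in KO liver with no filter (0.029) and the authors' filter (0.001), and on chow with median-ratio size factors (0.009), DESeq2 (0.009) and limma-voom (0.012), which also gave Elovl7 an interaction of -0.485. With no filter Fads3 (-1.003, adjusted p = 0.00506) and Elovl3 (-0.62, adjusted p = 0.0384) were called on chow, and Elovl3 for diet in WT liver (-0.73, adjusted p = 0.00492). With limma-voom Fads2 was called for diet in KO liver (0.50, adjusted p = 0.0446). Leaving out 1 library gave ranges across 0 for diet in WT liver in Fads6 (-0.061 to 0.345) and Elovl1 (-0.065 to 0.167), for diet in KO liver in Fads1 (-0.116 to 0.284), Fads6 (-0.125 to 0.078) and Elovl3 (-0.069 to 0.504), on chow in Fads1 (-0.013 to 0.340), Fads6 (-0.161 to 0.277), Elovl3 (-0.985 to 0.032) and Elovl5 (-0.760 to 0.118), on FFC in Elovl1 (-0.125 to 0.060), Elovl2 (-0.097 to 0.261) and Elovl5 (-0.466 to 0.038), and for the interaction in Fads6 (-0.372 to 0.061) and Elovl5 (-0.280 to 0.633). Over all genes, the number called for diet in WT liver was 2734, and 1305 to 2465 with 1 library left out. In KO liver it was 4312, 2351 in the 2 groups alone and 2751 to 4977 with 1 library left out. On chow it was 1185, and 1917 with no filter, 183 with the block, 2247 with DESeq2, 0 in the 2 groups alone, 751 with the offsets, of which 74.8% were higher against 55.1%, and 34 to 2533 with 1 library left out. On FFC it was 3, and 114, 14, 15 and 17 with no filter, the block, DESeq2 and the 2 groups alone, and 1 to 5 with 1 library left out. For the interaction it was 8, and 600, 396 and 415 with no filter, the block and DESeq2, 0 with limma-voom and the offsets, and 0 to 580 with 1 library left out. The causes were not tested. Elovl7 gave no value under the authors' filter, none for diet in KO liver or on chow in a fit of the 2 groups alone, where the filter on low counts removed it, and none on chow or for the interaction without WT chow replicate 4, where both chow groups are at 0. Depth limits Elovl7, with at most 97 reads in a library, and Fads3, with 29 to 1222.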
